A study of Mus musculus with 2 samples.

Results

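The interferon-stimulated genes described here are 34 listed genes, and 33 of them had a row in both count files, among 31053 genes in all. Mx2 is not analysed here. The 33 members were taken as listed, without regard to their level in any cell. They were followed gene by gene and as a sum in enterocytes along the villus and in tuft, goblet, T and B cells.

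Interferon-stimulated genes are the transcripts that cells raise when an interferon binds its receptor. Type I and type III interferons act through the kinases Jak1 and Tyk2 and a complex with Stat2 and Irf9 that binds the interferon-stimulated response element (ISRE). Interferon-gamma acts at a different element, the gamma-activated site (GAS). In the gut, the epithelium is known for its response to type III interferon, and Irf7 is the factor that amplifies interferon production.

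The small intestine of 1 Tg mouse and 1 FMTg mouse was dissociated into single cells and counted with a droplet method that tags the 3' end of transcripts. The Tg mouse was Mdm2+/- Cag-CreERTg and the FMTg mouse Mdm2FM/- Cag-CreERTg, both C57BL/6j and 60 days old. Mdm2 is the main negative regulator of p53, and the series ascribes loss of Mdm2 to FMTg and its retention to Tg without spelling out the FM allele. Both mice carried 1 Mdm2 - allele and the tamoxifen-activated Cre driven by the broadly active Cag promoter, and both were taken 24 hours after 1 injection of tamoxifen at 6 mg per 40 g. No mouse without Cre or without tamoxifen is among the samples. Each group is 1 mouse and 1 library, so there was no replicate check, no test was possible, and every interval below reflects the counting of molecules and not differences between mice.

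There were 54013005 unique molecular identifiers (UMIs) over 6270 barcodes from the Tg mouse and 49805718 over 6382 from the FMTg mouse. After filters, 2913 Tg and 2675 FMTg cells remained, with medians of 4938 and 4710 UMIs per cell and 11.7% and 14.8% mitochondrial UMIs. The limit of 25% mitochondrial UMIs removed 2946 Tg and 3353 FMTg barcodes, and 14 barcodes occurred in both libraries. Cells fell into 26 clusters, from which the members and the other interferon genes were left out. Clusters were called enterocyte-like, tuft-like, goblet-like, T-like or B-like from marker genes. All 13 enterocyte, 10 tuft, 7 goblet, 11 T cell and 8 B cell markers had UMIs in the class named for them in both libraries. The names were given from these same markers, so this is no check of them. Markers of other types had UMIs too, such as all 8 B cell markers in enterocyte-like cells of both libraries. Enterocyte-like cells lay in clusters 3, 4, 5, 7 and 11, and cluster 4 held 23 Tg and 237 FMTg cells.

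The promoters of 25 of the 33 members were in the RefSeq table of build GRCm38.p6, from 250 bases before to 50 after the start of transcription. The ISRE was searched on both strands as GAAA, any 2 bases, GAAA. It was found for 15 of the 25 members (60%), against 3.44% of the 32851 promoters of the table. The GAS was searched as TTC, any 3 bases, GAA, which reads the same on both strands, and was found for 5 of the 25 (20%), against 8.30% of all promoters. Oas1a, Bst2 and Igtp had both elements. A match describes these letters only and is not a binding site. The 5 promoters shown belong to the members on which the comparison turns: Ifit1, Ifit1bl1, Isg15 and Rsad2, which were higher in FMTg enterocyte-like cells, and Igtp, which was lower. They lie at chr19:34640639-34640938 (plus strand), chr19:34601919-34602218 (minus), chr4:156200769-156201068 (minus), chr12:26456403-26456702 (minus) and chr11:58199306-58199605 (plus). They are written in the direction of transcription, with the ISRE matches in capitals, and TTTC, any 2 bases, TTTC is the same element read on the other strand.
Ifit1: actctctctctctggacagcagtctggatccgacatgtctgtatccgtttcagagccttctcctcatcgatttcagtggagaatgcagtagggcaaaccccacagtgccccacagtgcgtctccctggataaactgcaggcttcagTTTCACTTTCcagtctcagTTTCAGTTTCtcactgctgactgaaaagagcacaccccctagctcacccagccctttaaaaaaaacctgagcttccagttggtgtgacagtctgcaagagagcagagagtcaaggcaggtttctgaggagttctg
Ifit1bl1: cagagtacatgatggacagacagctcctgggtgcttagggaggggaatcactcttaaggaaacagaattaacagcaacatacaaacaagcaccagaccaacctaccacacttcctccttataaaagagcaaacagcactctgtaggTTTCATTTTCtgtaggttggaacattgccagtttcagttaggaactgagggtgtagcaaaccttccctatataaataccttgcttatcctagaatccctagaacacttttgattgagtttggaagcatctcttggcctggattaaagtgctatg
Isg15: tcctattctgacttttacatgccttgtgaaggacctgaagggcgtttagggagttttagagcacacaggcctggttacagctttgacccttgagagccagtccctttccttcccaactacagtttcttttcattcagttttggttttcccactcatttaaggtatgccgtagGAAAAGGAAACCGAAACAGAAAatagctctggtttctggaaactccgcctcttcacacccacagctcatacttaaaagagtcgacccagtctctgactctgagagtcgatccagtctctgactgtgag
Rsad2: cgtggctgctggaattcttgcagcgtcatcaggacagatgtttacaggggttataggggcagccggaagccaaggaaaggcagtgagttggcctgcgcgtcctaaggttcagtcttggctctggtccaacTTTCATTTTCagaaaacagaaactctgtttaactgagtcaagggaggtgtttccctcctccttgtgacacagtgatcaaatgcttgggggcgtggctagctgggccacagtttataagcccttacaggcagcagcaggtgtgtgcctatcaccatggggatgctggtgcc
Igtp: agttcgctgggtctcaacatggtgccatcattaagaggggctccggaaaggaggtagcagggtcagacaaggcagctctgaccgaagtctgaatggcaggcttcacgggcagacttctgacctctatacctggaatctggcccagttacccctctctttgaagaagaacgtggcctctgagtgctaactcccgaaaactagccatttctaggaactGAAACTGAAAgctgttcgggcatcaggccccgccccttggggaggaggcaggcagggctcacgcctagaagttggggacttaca
Counted from the start of transcription, the first match began at -104 in Ifit1 and in this Ifit1bl1 promoter, at -120 in Rsad2, at -78 in Isg15 and at -34 in Igtp. Isg15 had 3 overlapping matches that form 1 unbroken run. The element was thus present in promoters of members that were higher and of a member that was lower in FMTg enterocyte-like cells.

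As a sum, the members were higher in the enterocyte-like, tuft-like and goblet-like cells of the FMTg library and lower in its T-like and B-like cells. Levels are UMIs scaled to a total of 1000000 for the class and library (CPM), and differences are log2 ratios of FMTg over Tg. Enterocyte-like cells went from 1672 CPM in 572 Tg cells to 3042 CPM in 508 FMTg cells, a log2 ratio of 0.86 (95% interval 0.84 to 0.89). Tuft-like cells went from 1856 to 2550 CPM, a log2 ratio of 0.46 (0.37 to 0.55), in 51 and 62 cells. Goblet-like cells went from 1328 to 1814 CPM, a log2 ratio of 0.45 (0.36 to 0.54), in 121 and 44 cells. T-like cells went from 1160 to 995 CPM, a log2 ratio of -0.22 (-0.28 to -0.17), in 1137 and 1052 cells. B-like cells went from 758 to 596 CPM, a log2 ratio of -0.35 (-0.45 to -0.24), in 511 and 578 cells. Crypt-progenitor-like cells, of which there were 10 and 37, stood at 402 and 405 CPM and were the lowest class in both libraries among those plotted. The plot of summed levels by class shows the FMTg point to the right of the Tg point in each villus and secretory epithelial class and to the left of it in both lymphocyte classes.

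**Figure D1:**
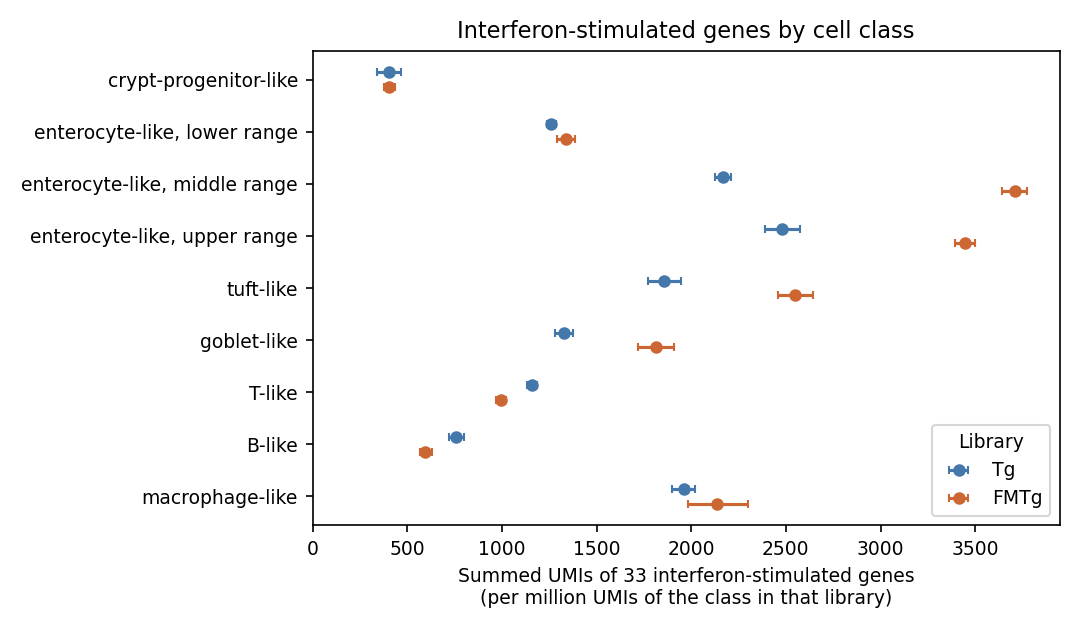
Summed CPM of the 33 members (horizontal axis) in the Tg and FMTg libraries for 9 cell classes; bars are exact 95% Poisson intervals of the counts and do not cover differences between mice. Enterocyte-like cells of the middle range stood at 2166 (Tg) and 3709 (FMTg), and B-like cells at 758 and 596.

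Member by member, the difference in enterocyte-like cells was broad. All 33 members had at least 20 UMIs over both libraries there, and 22 were at least 1.5-fold higher in FMTg, where 16.0% of all 10539 genes measured the same way were. In the other direction, 1 member was at least 1.5-fold lower, against 10.8% of genes. The median log2 ratio was 0.97 over the members and 0.07 over all genes. The sum was not led by a single gene: without Ifit1bl1, the member with the most UMIs, its log2 ratio was 0.77.

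The Ifit genes encode proteins that bind foreign or incompletely capped RNA, and all 5 sit together on chromosome 19. Ifit1 gave 1630 Tg and 3392 FMTg UMIs, a log2 ratio of 1.46 (1.37 to 1.54). Ifit1bl1 gave 1454 and 3928 UMIs, a log2 ratio of 1.83 (1.75 to 1.92). Ifit2 had few UMIs in Tg, 37 against 262 in FMTg, with a log2 ratio of 3.22 (2.72 to 3.76). Both libraries had the gene in few cells, 13 and 32, and 64 of the FMTg UMIs came from 1 cell. Ifit3 and Ifit3b were lower in UMIs, 124 and 186 for Ifit3 and 35 and 89 for Ifit3b, with log2 ratios of 0.98 and 1.74. These 3 sparse genes rested on few cells: without the 10 cells of each library that held the most member UMIs, Ifit2 gave 34 and 66 UMIs (1.35), Ifit3 93 and 96 (0.44, 0.01 to 0.86) and Ifit3b 24 and 21 (0.20, -0.72 to 1.10). The family as a whole went from 235 to 740 CPM, a log2 ratio of 1.66 (1.60 to 1.72).

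The next group of genes makes and removes the ubiquitin-like modifier Isg15. Isg15 gave 1435 Tg and 2601 FMTg UMIs, a log2 ratio of 1.26 (1.16 to 1.35). Usp18, the protease that removes Isg15 from proteins and restrains the interferon receptor, gave 313 and 643 UMIs, a log2 ratio of 1.44. Herc6, a ligase that attaches Isg15 in the mouse, gave 422 and 644 UMIs, a log2 ratio of 1.01. All 3 were higher in FMTg, and their summed log2 ratio was 1.24 (1.16 to 1.32).

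Of the transcription factors, Irf7 differed more than its partners. Irf7 gave 1603 Tg and 2655 FMTg UMIs, a log2 ratio of 1.13 (1.04 to 1.22), with UMIs in 377 of 572 and 399 of 508 cells. Irf9, the DNA-binding subunit of the interferon complex, gave 349 and 392 UMIs, a log2 ratio of 0.57 (0.35 to 0.78). Stat2, its activating subunit, gave 442 and 493 UMIs, a log2 ratio of 0.56 (0.37 to 0.74). The intervals of Irf9 and Stat2 lie below that of Irf7.

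The Oas family makes oligoadenylates that switch on RNase L, or, in the Oasl genes, resembles the enzymes that do. Oasl1 gave 813 Tg and 1639 FMTg UMIs, a log2 ratio of 1.41, and Oasl2 gave 1041 and 2029 UMIs, a log2 ratio of 1.36. Oas3 gave 322 and 504 UMIs, a log2 ratio of 1.04, and the sparse Oas2 gave 25 and 54 UMIs, a log2 ratio of 1.51. Oas1a and Oas1g share 16.7% and 7.54% of the 50-base windows at their 3' ends, so the split of UMIs between them is uncertain. Their log2 ratios were 0.59 and 0.19. The family went from 225 to 489 CPM, a log2 ratio of 1.12 (1.05 to 1.18).

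Among other antiviral effectors, Rsad2 stood apart. Rsad2, which encodes viperin, an enzyme that makes a chain-terminating nucleotide, gave 128 Tg UMIs and 1379 FMTg UMIs. Its log2 ratio was 3.83 (3.57 to 4.10). It had UMIs in 30 Tg and 102 FMTg cells, and 1 FMTg cell carried 412 of its UMIs. Without the same 10 cells of each library, Rsad2 gave 53 and 361 UMIs and a log2 ratio of 3.16. Rtp4 (439 and 653 UMIs), Bst2 (219 and 270), which tethers virus particles, Mx1 (41 and 75), a GTPase that blocks viral replication, and Ifi44 (83 and 148) had log2 ratios of 0.97, 0.70, 1.27 and 1.23. Parp14, an ADP-ribosyltransferase, gave 1718 and 1962 UMIs and a log2 ratio of 0.59, and Xaf1 gave 404 and 450 and a log2 ratio of 0.55. Ifi35 and Ifi27 differed by under 1.5-fold, with 2520 and 2074 UMIs and 661 and 440 UMIs, and log2 ratios of 0.12 (0.03 to 0.20) and -0.19 (-0.37 to -0.01).

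Sensors of foreign nucleic acid divided. Ifih1, the sensor of long double-stranded RNA, gave 977 Tg and 1417 FMTg UMIs, a log2 ratio of 0.93 (0.82 to 1.05). Dhx58, its regulator, gave 76 and 95 UMIs and a log2 ratio of 0.72, and Ddx58 (RIG-I) gave 557 and 501 UMIs and a log2 ratio of 0.25 (0.07 to 0.42). Zbp1, the sensor of Z-form nucleic acid that can start necroptosis, was lower in FMTg, with 2087 and 1061 UMIs and a log2 ratio of -0.58 (-0.69 to -0.47). As a group the sensors differed little, from 264 to 290 CPM.

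The immunity-related GTPases, which act on vacuoles that hold microbes and are known above all as targets of interferon-gamma, differed among themselves in enterocyte-like cells. Igtp gave 1716 Tg and 671 FMTg UMIs, a log2 ratio of -0.96 (-1.09 to -0.83), and is the member that was at least 1.5-fold lower. Ifi47 (548 and 439 UMIs) and Irgm1 (208 and 178 UMIs) had log2 ratios of 0.08 (-0.11 to 0.26) and 0.17 (-0.12 to 0.47), which include 0. In sum the 3 GTPases went from 177 to 121 CPM, a log2 ratio of -0.54 (-0.64 to -0.44), with Igtp alone below 0. The heat map of members by class shows Rsad2 at the red end of the scale in the middle and upper ranges and in tuft-like cells. Zbp1 and Igtp are in blue in each enterocyte range. Other members are also below 0 in the upper range, among them Ifi27 (-0.65), Oas1g (-0.52) and Ifit3b. Ifit3b stood there at -0.92 (-2.10 to 0.40), on 9 and 21 UMIs.

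**Figure D2:**
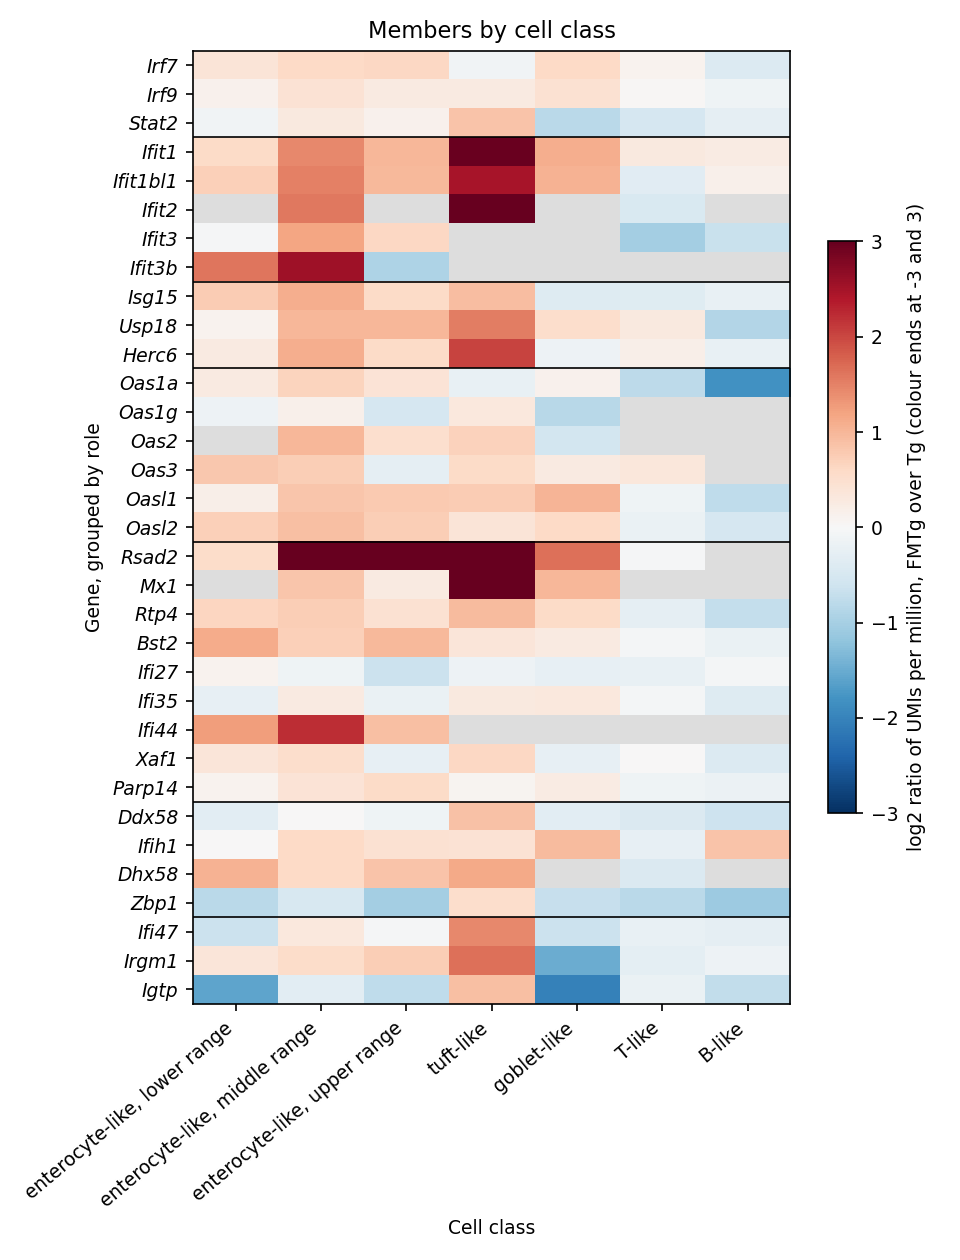
Log2 ratio of CPM, FMTg over Tg, for each member (vertical axis, grouped by role) in 7 cell classes (horizontal axis). Grey marks a member with under 20 UMIs over both libraries or with no Tg UMIs. The latter holds for Ifit2 in the upper range (196 FMTg UMIs) and Ifit3 in tuft-like cells (33 FMTg UMIs). The colour scale ends at -3 and 3. Rsad2 is at 3.49 in the middle range and 0.54 in the lower range, and Igtp at -1.59 in the lower range.

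Enterocytes change their programme as they climb from the villus base to its tip, so the comparison was repeated by position. Each cell of at least 2000 UMIs was thinned to that depth and scored by 11 villus tip genes minus 8 lower-villus genes, and the scores were divided into 3 ranges with equal numbers of cells over both libraries. This left out 122 Tg and 47 FMTg cells as too shallow. A range is a stretch of a score and not a cell type, and 65 Tg and 28 FMTg cells lay within 0.1 of a dividing score. The libraries were placed unequally: of the Tg cells 48.9% were in the lower, 38.0% in the middle and 13.1% in the upper range, against 18.2%, 28.6% and 53.1% of the FMTg cells.

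Within each library the members stood higher toward the tip. In Tg the sum went from 1260 CPM in the lower range to 2166 in the middle and 2481 in the upper range, an upper-over-lower log2 ratio of 0.98 (0.92 to 1.04). In FMTg it went from 1338 to 3709 and 3448 CPM, an upper-over-lower log2 ratio of 1.37 (1.31 to 1.42). The level was higher in the upper than in the lower range for 27 of 33 members in Tg and 28 of 33 in FMTg. No share of all genes was counted for this contrast, so these counts do not set the members apart from other genes. The lower-villus genes of the score went from 151410 to 24171 CPM in Tg and from 107746 to 15478 in FMTg. Their part in the CPM of other genes was not tested. Irf7 went from 75.2 to 218 CPM in Tg and from 97.8 to 337 in FMTg. Isg15 went from 63.0 to 185 CPM in Tg and from 107 to 277 in FMTg. Oasl1 went from 35.3 to 132 CPM in Tg and from 39.8 to 228 in FMTg. Rsad2 went from 3.70 to 13.7 CPM in Tg, and from 5.39 to 145 in FMTg. The exceptions included Irgm1, which was lower toward the tip in both libraries, and Igtp, which went from 123 to 72.9 CPM in Tg and from 41.0 to 43.1 in FMTg.

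Between libraries, the log2 ratio of the sum was 0.09 (0.03 to 0.14) in the lower, 0.78 (0.74 to 0.81) in the middle and 0.47 (0.42 to 0.53) in the upper range. This order rests on how cells were placed. The lower-villus genes of the score include Reg1, Reg3a, Reg3b and Reg3g, and without them the values were 0.83, 0.58 and 0.55 from lower to upper. With ranges set within each library they were 0.97, 0.98 and 0.59, and with no mitochondrial limit 0.67, 0.63 and 0.54. Averaged over the 3 ranges with equal weight, the levels gave a log2 ratio of 0.52, against 0.86 over all enterocyte-like cells. In the middle range 21 of 33 measured members were at least 1.5-fold higher (9.50% of all genes were) and 0 were lower (9.63% of genes). In the upper range 13 of 33 were higher (16.3% of genes) and 4 lower (12.7% of genes). In the lower range 9 of 30 were higher (15.8% of genes) and 3 lower (11.5% of genes). The medians over measured members were 0.27, 0.71 and 0.49 from the lower to the upper range, against 0.02, 0.00 and 0.03 over all genes.

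The lower range was mixed rather than without difference. Isg15 gave 510 Tg and 258 FMTg UMIs there, a log2 ratio of 0.76 (0.54 to 0.98). Bst2 had a log2 ratio of 1.11 (118 and 76 UMIs), Oas3 of 0.80 (104 and 54), Ifit1bl1 of 0.72 (412 and 202) and Oasl2 of 0.72 (383 and 188). Irf7 stood at 0.38 (609 and 236 UMIs), Irf9 at 0.14 and Stat2 at -0.10. Against these, Igtp gave 1000 and 99 UMIs, a log2 ratio of -1.59 (-1.90 to -1.29), and Zbp1 gave 1025 and 174 UMIs, a log2 ratio of -0.81 (-1.05 to -0.58). Ifi35, the member with the most UMIs in this range, gave 1345 and 339 UMIs and a log2 ratio of -0.24. Without the 10 cells with the most member UMIs in each library, which are 10 of 220 Tg and 10 of 84 FMTg cells, the log2 ratio of the sum in this range was -0.48 and that of Ifit1bl1 -0.19. It was -0.13 with doublets kept and 0.67 with no mitochondrial limit.

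In the middle range, Rsad2 gave 83 Tg and 663 FMTg UMIs, a log2 ratio of 3.49 (3.15 to 3.83). Ifi44 (23 and 76 UMIs), Ifit3b (14 and 58) and Ifit2 (29 and 62) had log2 ratios of 2.21, 2.54 and 1.58. Without the 10 highest cells Ifit3b and Ifit2 gave 0.25 and 0.40, with 8 FMTg UMIs each, and Rsad2 gave 2.31. Ifit1bl1 gave 772 and 1569 UMIs and Ifit1 838 and 1617 UMIs, with log2 ratios of 1.51 and 1.44. Isg15 gave 659 and 998 UMIs and a log2 ratio of 1.09, and Irf7 gave 724 and 782 UMIs and a log2 ratio of 0.60. Irf9 and Stat2 stood at 0.44 and 0.30. Zbp1 (823 and 424 UMIs) and Igtp (630 and 360) had log2 ratios of -0.47 and -0.32, which are under 1.5-fold.

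In the upper range, Rsad2 gave 15 Tg and 701 FMTg UMIs, a log2 ratio of 3.41 (2.68 to 4.25). Ifit2 had 0 UMIs in the 59 Tg cells and 196 in the 245 FMTg cells, at least 14.8-fold higher when Tg is set to a floor of 3 counts, and 24 of those UMIs were outside the 10 highest FMTg cells. Ifit1 (172 and 1504 UMIs), Usp18 (43 and 376), Ifit1bl1 (249 and 2141) and Bst2 (10 and 86) had log2 ratios of 0.99, 0.99, 0.97 and 0.97. Oasl1 and Oasl2 stood at 0.78 and 0.73, Irf7 at 0.63, Isg15 at 0.58, Irf9 at 0.26 and Stat2 at 0.12. Zbp1 (210 and 457 UMIs), Igtp (80 and 208), Ifi27 (59 and 165) and Ifit3b (9 and 21) were at least 1.5-fold lower, with log2 ratios of -1.02, -0.76, -0.65 and -0.92. The Ifit family, the Isg15 genes, the transcription factors and the Oas family were higher in FMTg in all 3 ranges, with log2 ratios from 0.26 to 1.48. In the lower range, however, 10 of the 84 FMTg cells held 52.5% of the member UMIs. The log2 ratio of the sum there changed sign without the 10 highest cells of each library.

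**Figure D3:**
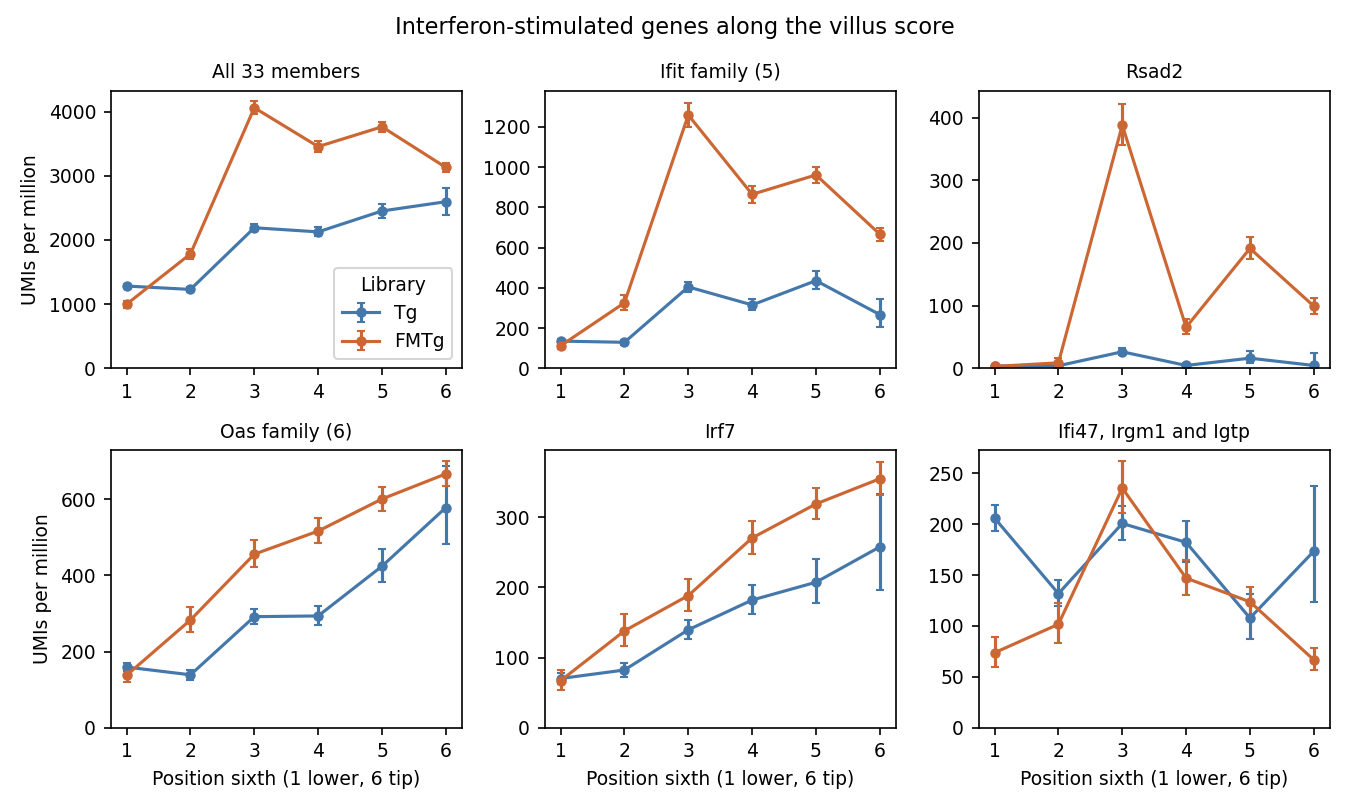
CPM of all members, of 3 gene groups and of Rsad2 and Irf7 (vertical axes) in 6 equal bins of the villus position score (horizontal axis, 1 lower, 6 tip) in the Tg and FMTg libraries; bars are exact 95% Poisson intervals. The sum stood at 1282 (Tg) and 999 (FMTg) in bin 1, at 2190 and 4061 in bin 3 and at 2596 and 3131 in bin 6, where Tg has 14 cells.

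The plot along 6 position bins shows where the libraries part. In bin 1 the FMTg sum was the lower, 999 against 1282 CPM, and from bin 2 on it was the higher. Irf7 was higher in each successive bin in Tg, and in FMTg too, with the FMTg level above the Tg level from bin 2 to bin 6. Rsad2 had its highest FMTg bin at bin 3, which holds the cell with 412 of its UMIs. Median depth was lower toward the tip in both libraries, from 37320 to 15278 UMIs per cell in Tg and from 34893 to 14398 in FMTg, and its part in these levels was not tested.

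The enterocyte clusters give a further view, since the 2 libraries filled them unequally. Cluster 4, led by Clca4a, Slc23a4, Apoa4, Slc28a2 and Enpp3, held 4.02% of the Tg and 46.7% of the FMTg enterocyte-like cells. Its member level was high in both libraries, 4587 CPM in 23 Tg cells and 4175 CPM in 237 FMTg cells, a log2 ratio of -0.14. In cluster 3, with 162 and 107 cells, the sum went from 2151 to 2848 CPM (0.41), and in cluster 11, with 87 and 31 cells, from 975 to 1824 CPM (0.90). In cluster 7, led in part by Reg3a, Reg3g and Reg3b, it went from 1455 to 1332 CPM (-0.13). Cluster 5, which is shallow with a median of 1600 UMIs per FMTg cell, went from 2356 to 1559 CPM (-0.60). Without cluster 4, the log2 ratio over enterocyte-like cells was 0.43, and the values by range were 0.09, 0.47 and 0.05 from lower to upper. Within clusters the difference had both signs, and the cluster with the highest member level was the one that held the larger share of the FMTg cells.

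Single members followed these clusters unequally. Rsad2 was higher in FMTg within cluster 4, from 42.5 to 248 CPM (log2 ratio 2.54), within cluster 3, from 16.5 to 41.2 CPM (1.32), and within clusters 7 and 11 (2.92 and 3.28). These ratios rest on few Tg UMIs, since the 5 enterocyte clusters together held 128 Tg UMIs of Rsad2 in 30 cells. Ifit1 was higher in FMTg in clusters 3, 4, 7 and 11, with log2 ratios of 0.88, 0.28, 0.57 and 1.01, and lower in cluster 5 (-0.61). Irf7 differed little within cluster 4, 360 and 353 CPM, and stood at 165 and 244 CPM in cluster 3. Isg15 was lower in FMTg within cluster 4, 476 and 344 CPM, also lower in cluster 5, 324 and 91.3 CPM (log2 ratio -1.83, on 99 and 13 UMIs), and higher in clusters 3, 7 and 11. Ifit2 stood at 53.8 and 49.8 CPM in cluster 4, a log2 ratio of -0.11. Igtp was lower in FMTg in clusters 3, 4, 5 and 7, with the largest difference in cluster 7 (889 and 109 UMIs, log2 ratio -1.81), and stood at 0.30 in cluster 11 (114 and 29 UMIs). Zbp1 was lower in FMTg in each of the 5 clusters, with log2 ratios from -1.31 to -0.11.

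The members' UMIs were concentrated in few cells, more so in FMTg over all enterocyte-like cells. In FMTg 56 of 508 enterocyte-like cells held 50% of all member UMIs, and in Tg 82 of 572 did. The FMTg cell with the most held 1859 member UMIs of its 62718, which is 5.76% of the class sum, and the Tg cell with the most held 461 of 60301, or 1.97%. The 10 highest cells held 21.9% of the FMTg and 13.3% of the Tg sum. Without them the log2 ratio of the sum was 0.70 in enterocyte-like cells. For the middle range it was 0.50, for the upper 0.47, each without the 10 highest cells of that range and library. In the upper range these were 10 of 59 Tg and 10 of 245 FMTg cells. They held 48.8% of the Tg and 29.0% of the FMTg sum there, so unequal shares were removed. Because 10 cells are a larger part of the Tg cells, these percentages do not compare how concentrated the UMIs were.

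Thinning each cell to 2000 UMIs separates the typical cell from the extreme one. The median cell of the upper range held 5 member UMIs in both libraries, while the 90th percentile was 9 in Tg and 12 in FMTg and the highest cell 40 and 73. In the middle range the median was 3 in Tg and 4 in FMTg, the 90th percentile 9 and 14.9, and the highest cell 46 and 65. In the lower range the median was 2 in Tg and 1 in FMTg, and the 90th percentile 5 and 6. The plot of member UMIs per thinned cell shows the 2 lines close together for most cells of the upper range and apart on the right, among the cells with the most. At equal weight per cell, the log2 ratio over all enterocyte-like cells was 0.59.

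**Figure D4:**
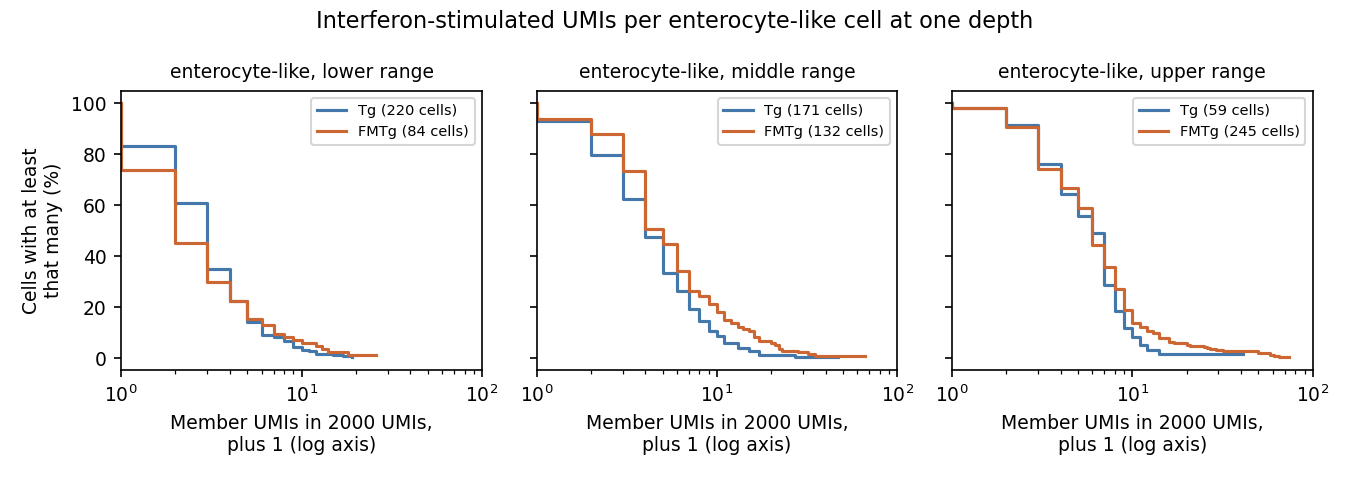
Share of enterocyte-like cells (vertical axis, percent) with at least a given number of member UMIs after thinning each cell to 2000 UMIs (horizontal axis, plus 1, log scale), by range and library. In the upper range the medians are 5 and 5 and the highest cells 40 (Tg) and 73 (FMTg).

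Shares of thinned cells with a UMI were read for single members over the 3 ranges together, so the unequal placement of the libraries enters them. Rsad2 was seen in 1.33% of Tg cells (exact binomial interval 0.49% to 2.88%) and 6.51% of FMTg cells (4.43% to 9.16%), of 450 and 461 enterocyte-like cells. Without thinning it was seen in 30 of 572 and 102 of 508. In B-like cells thinned alike, the share was 0.82% in Tg and 0.36% in FMTg. Ifit1bl1 was seen in 13.3% and 29.3% and Irf7 in 19.8% and 33.2% of the thinned enterocyte-like cells. Igtp was seen in 18.2% of Tg and 7.38% of FMTg cells.

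Tuft cells are rare chemosensory epithelial cells that make the cytokine Il25. In tuft-like cells (cluster 12), 19 of 31 measured members were at least 1.5-fold higher in FMTg, against 10.2% of all genes, and 0 were lower, against 9.80%. The median log2 ratio was 0.85 over the members and -0.03 over all genes. The Ifit family, scarce in Tg with 23 UMIs, had 245 UMIs in FMTg, a log2 ratio of 3.13 (2.51 to 3.81). Ifit1 went from 11 to 105 UMIs (2.97) and Ifit1bl1 from 11 to 75 (2.48), and Ifit3 had 0 Tg and 33 FMTg UMIs, at least 9.02-fold higher at a floor of 3 counts. Rsad2 went from 5 to 63 UMIs, a log2 ratio of 3.37 (2.07 to 5.04). Single FMTg cells held many of these UMIs, 22 of the 33 of Ifit3, 47 of the 75 of Ifit1bl1, 38 of the 105 of Ifit1 and 33 of the 63 of Rsad2. Without the 10 highest cells of each library, Ifit3 had 0 UMIs in both, Ifit1bl1 7 and 7, Ifit1 7 and 22, and Rsad2 2 and 16. Usp18 (19 and 67 UMIs) stood at 1.53, Isg15 (85 and 198) at 0.93 and Rtp4 (35 and 83) at 0.96.

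Members with many UMIs in Tg tuft-like cells differed less. Irf7, the member with the most UMIs here, gave 351 Tg and 399 FMTg UMIs, a log2 ratio of -0.10 (-0.31 to 0.11). Ifi27 (303 and 332 UMIs) and Oas1a (123 and 129) stood at -0.16 and -0.22, and Irf9 and Stat2 at 0.26 and 0.85 with intervals that include 0. Unlike in enterocyte-like cells, the 3 GTPases were all above 0 (Ifi47 1.44, Irgm1 1.66 and Igtp 0.91), on 31 Tg and 92 FMTg UMIs in all. The interval of Igtp, -0.04 to 1.93, includes 0. Ifit1bl1 UMIs lay in few tuft-like cells: after thinning, 2 of 50 Tg and 2 of 62 FMTg cells had one. The FMTg tuft-like cell with the most member UMIs held 364, or 12.6% of the class. Without the 10 highest cells of each library the log2 ratio of the sum was 0.20, and with doublets kept it was 0.03, as against 0.46. Enterocyte markers in tuft-like cells stood at 18.4% (Tg) and 17.4% (FMTg) of their level in enterocyte-like cells, and their part in the member levels was not tested.

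Goblet-like cells, the mucus-secreting cells, lay in cluster 10. Of 28 measured members, 8 were at least 1.5-fold higher in FMTg, against 14.4% of genes, and 6 were lower, against 19.6% of genes. The lower share, 21.4% of the members, was near that of all genes. Rsad2 gave 102 Tg and 116 FMTg UMIs, a log2 ratio of 1.64 (1.25 to 2.04). Oasl1, with the most UMIs of the members here, gave 355 and 261 UMIs (1.02), Ifit1bl1 173 and 129 (1.04), Ifit1 92 and 71 (1.08) and Ifih1 97 and 68 (0.95). Irf7 gave 282 and 155 UMIs, a log2 ratio of 0.60 (0.30 to 0.88), and Oasl2 183 and 101, also 0.60. Isg15 was not among them, with 202 and 56 UMIs and a log2 ratio of -0.39 (-0.85 to 0.04), and Irf9 stood at 0.46. Igtp (79 and 7 UMIs), Irgm1 (62 and 8), Stat2 (77 and 16) and Zbp1 (169 and 38) were lower, with log2 ratios of -2.04, -1.50, -0.81 and -0.69. Enterocyte markers stood at 14.4% of the enterocyte level in Tg goblet-like cells and 24.8% in FMTg ones. Members at those percentages of their enterocyte level would amount to 240 and 755 CPM of the 1328 and 1814 measured, and the part of such RNA in the difference was not tested.

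T-like cells (clusters 0, 2, 14, 15 and 18) gave no member at least 1.5-fold higher in FMTg among 28 measured, against 4.85% of genes, and 3 lower, against 8.14%. The lower 3 were Zbp1, Oas1a and Ifit3. Zbp1 gave 341 Tg and 170 FMTg UMIs, a log2 ratio of -0.81 (-1.08 to -0.54), and Oas1a gave 134 and 68 UMIs, a log2 ratio of -0.78 (-1.23 to -0.35). Ifi47, with the most UMIs here, gave 1202 and 896 UMIs (-0.23), Ifi27 925 and 690 (-0.23), Parp14 611 and 486 (-0.13), Ddx58 500 and 322 (-0.44) and Isg15 406 and 274 (-0.37). Irf7 and Irf9 stood at 0.10 and 0.05, with intervals that include 0, and Stat2 at -0.50 (-0.84 to -0.16). Rsad2 had 21 and 18 UMIs (-0.03). Interferon-stimulated genes outside the members went both ways in T-like cells. Ifi27l2a gave 321 and 656 UMIs, a log2 ratio of 1.23 (1.03 to 1.42), and Ifi27l2b gave 467 and 216, a log2 ratio of -0.92 (-1.16 to -0.68). Clusters 6 and 8 carried T cell markers but were left unnamed, with 58 and 155 and 102 and 92 cells. Their member sums were likewise lower in FMTg, and with them the T-like log2 ratio was -0.26.

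B-like cells (clusters 1, 13 and 16) gave 1 of 24 measured members at least 1.5-fold higher, against 6.44% of genes, and 8 lower, against 10.1%. The member that was higher is Ifih1, on 10 Tg and 21 FMTg UMIs. Among the lower were Zbp1 (81 and 44 UMIs, -1.10), Igtp (50 and 35, -0.74), Ddx58 (88 and 67, -0.61) and Oasl1 (38 and 26, -0.77). Parp14 and Ifi35 had log2 ratios of -0.19 and -0.38, Isg15 (53 and 53 UMIs) of -0.22, Irf7 of -0.41, Irf9 of -0.14 and Stat2 of -0.27. Rsad2 had 8 and 10 UMIs. Enterocyte markers in T-like cells stood at 4.79% (Tg) and 2.68% (FMTg) of the enterocyte level, and those in B-like cells at 6.31% and 3.13%. Members at those percentages would amount to 80.1 and 81.5 CPM in T-like and 106 and 95.1 CPM in B-like cells. The measured sums were 1160 and 995 CPM in T-like and 758 and 596 CPM in B-like cells.

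Macrophage-like cells held 3837 Tg and 723 FMTg member UMIs in 181 and 41 cells, at 1960 and 2139 CPM, a log2 ratio of 0.13 (0.01 to 0.24). Of 29 members measured there, 5 were at least 1.5-fold higher (13.3% of genes) and 2 lower (17.1% of genes). Bst2, with the most UMIs of the members, gave 401 and 98 UMIs (0.50), Isg15 374 and 49 (-0.40), Rtp4 311 and 39 (-0.46) and Zbp1 303 and 23 (-1.19). Rsad2 gave 42 and 66 UMIs, a log2 ratio of 3.19 (2.61 to 3.78), and 48 of the 66 came from 1 cell. Oasl1 (29 and 27 UMIs) stood at 2.43 and Ifi27 (63 and 29) at 1.41, while Irf7, Irf9 and Stat2 stood at 0.07, 0.04 and 0.69 with intervals that include 0. Neutrophil-like cells had the highest member level of the named classes in Tg, 6604 CPM in 53 cells, and stood at 2928 CPM in 7 FMTg cells, on 807 and 46 UMIs. There 1 of 14 measured members was higher (19.7% of genes) and 9 were lower (30.5% of genes), with 145 and 6 UMIs for Isg15, 56 and 1 for Rsad2, 35 and 1 for Irf7, 12 and 0 for Irf9 and 6 and 1 for Stat2.

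Zbp1 was below 0 in enterocyte-like, goblet-like, T-like and B-like cells, and at 0.52 (-0.42 to 1.5) in tuft-like cells on 16 and 28 UMIs. Igtp was below 0 in the same 4 classes, though its interval in T-like cells includes 0 (-0.20, -0.48 to 0.07). Rsad2 was at least 1.5-fold higher in enterocyte-like, tuft-like, goblet-like and macrophage-like cells, lower in the 7 FMTg neutrophil-like cells, and stood at -0.03 in T-like cells. Whether the classes differ was not tested.

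Ligands and upstream genes were read from lists of the pathway. Of 10 interferon genes, 9 had 0 UMIs in every retained cell of both libraries, including Ifnb1, Ifnl2 and Ifnl3. A count of 0 does not show that a gene was silent. Ifng had 59 Tg and 56 FMTg UMIs in all, of which 46 and 47 were in T-like cells. Receptors differed by less than 1.5-fold in enterocyte-like cells: Ifngr2 gave 2885 and 2488 UMIs (0.18), Ifngr1 1689 and 1506 (0.23), Ifnlr1, the receptor chain for type III interferon, 130 and 123 (0.32), and Ifnar1 224 and 195 (0.20). Of 19 receptor and signalling genes measured, 3 were at least 1.5-fold higher and 0 lower, where 16.0% and 10.8% of all genes were, a share of the list near that of all genes. The 3 were Socs3, a feedback inhibitor of cytokine receptors, with 285 and 891 UMIs and a log2 ratio of 2.04, Socs1 (63 and 76 UMIs, 0.67) and Jak2 (917 and 1101 UMIs, 0.66). Irf1, a transcription factor of the pathway, gave 1617 and 1276 UMIs and a log2 ratio of 0.06.

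Sensing genes and further target genes divided in the same enterocyte-like cells. Beside the same 16.0% higher and 10.8% lower of all genes, 3 of 9 sensing genes measured were higher and 0 lower. Trim25, the ligase that activates RIG-I, gave 948 and 1876 UMIs (1.38), Adar 259 and 312 (0.67) and Myd88 167 and 199 (0.65), while the endosomal sensor Tlr3 gave 246 and 126 UMIs (-0.57). Of 16 interferon-gamma response genes measured, 5 were higher and 1 lower (16.0% and 10.8% of all genes), with a median log2 ratio of -0.09 against 0.07 over all genes. Cxcl10, a chemokine, gave 8 and 95 UMIs (3.97) and Gbp3, a guanylate-binding GTPase, gave 21 and 43 (1.43). B2m, the light chain of class I molecules, gave 22097 and 23515 UMIs (0.49). The immunoproteasome subunits were below 0, with 2441 and 1115 UMIs for Psmb9 (-0.73), 5069 and 2715 for Psmb10 (-0.50) and 5894 and 3400 for Psmb8 (-0.40). Of 26 other interferon-stimulated genes measured, 13 were higher and 0 lower (16.0% and 10.8% of all genes). Slfn5 (31 and 114 UMIs), Cmpk2 (347 and 901), a nucleotide kinase, Tor3a (22 and 53) and Ddx60 (1042 and 2302), a helicase, had log2 ratios of 2.28, 1.77, 1.67 and 1.54. Ifi27l2b, with 23204 and 16847 UMIs, stood at -0.06.

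Targets of p53 are set beside the members because the genotypes differ in Mdm2. Cdkn1a, the cell cycle inhibitor, gave log2 ratios of 0.49, 0.96 and 0.55 from the lower to the upper range, and Ccng1 gave 0.96, 0.99 and 0.86. In T-like cells Cdkn1a stood at 1.24 while the member sum stood at -0.22. These values are given side by side, and no relation between them was tested. Mdm2 UMIs, which come from the 3' end, do not check the alleles.

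The mitochondrial limit set which cells the comparison could see. Among barcodes it removed, 2483 Tg and 2623 FMTg carried more epithelial than leukocyte RNA. Their member sum went from 1569 to 2358 CPM, a log2 ratio of 0.59 (0.57 to 0.61), and 0.31 when mitochondrial UMIs were left out of the totals. With a limit of 10%, the retained cells held 9 FMTg enterocyte-like cells and 55 Tg ones, and the log2 ratio of their member sum was -0.48. With no limit it was 0.71.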

How the data were processed

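Small intestine of 1 Tg and 1 FMTg mouse was profiled. Per the submitters' processing notes, CASAVA 1.8.1, Cell Ranger 3.0 and build mm10 were used, with no annotation release named. The deposited values are UMI counts per gene and barcode, not normalized, so total counts differ between cells, and the median kept cell had 4938 UMIs in Tg and 4710 in FMTg.

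Cells needed 500 UMIs, 300 genes and a mitochondrial share of 25% or less. Scrublet scores were computed for each library, and the top 154 Tg and 144 FMTg cells were removed as doublets, at 0.8% per 1000 barcodes. Clustering used both libraries and 2000 variable genes, without the members, the pathway lists, p53 targets, ribosomal protein or mitochondrially encoded genes (30 components, 20 neighbours, leidenalg 0.10.2 at resolution 1). A cluster took the type with the highest mean relative marker level among types with at least 3 markers seen in at least 10% of its cells. An epithelial name also needed more Epcam, Krt8, Krt20 and Vil1 than Ptprc and Coro1a. It stayed unnamed where another type had more markers among its 10 leading genes, or where it was shallow with none of its own there. This rule was revised after the clusters were seen. Unnamed clusters other than 6 and 8 are cycling cells (cluster 17) and cells with Paneth cell genes beside T cell markers (cluster 25).

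UMIs were summed per class and library and scaled to CPM. Ratios have exact conditional binomial intervals, levels exact Poisson and shares exact Clopper-Pearson intervals, all at 95%. UMIs tag molecules, so these cover counting error only. A gene was measured in a class with at least 20 UMIs over both libraries, a library at 0 was set to 3 counts for the 1.5-fold counts, and calculations were tested on simulated data. In enterocyte-like, tuft-like, goblet-like, T-like and B-like cells Irf7, Irf9, Stat2, Isg15 and Rsad2 were named. With them came up to 8 members of highest UMI count and, among those reaching 50 UMIs, up to 8 of largest absolute ratio. From each pathway list, up to 4 and 4 are given likewise for enterocyte-like cells. Members of other classes, other members, the values by cluster and Ifnlr1 and Ifnar1 were chosen after their values were seen. So were Ifi27l2a and Ifi27l2b in T-like cells. The members, the lists and the rules were chosen with earlier results of these data known. Alternatives covered the mitochondrial limit, doublets, scaling (edgeR 4.0.16 with TMM, DESeq2 1.42.0 with its size factors), weighting, clustering and position. The mean of the 3 villus ranges, the unnamed T clusters and leaving out the 10 highest cells were added after seeing the data. Scripts ran in R 4.3.3 and Python 3.11.15 with scanpy 1.11.5, pandas 2.3.3, scipy 1.17.1, numpy 2.4.6, matplotlib 3.10.9 and scikit-learn 1.9.0.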

Additional observations from a re-analysis of the deposited data

Results flagged for a closer look

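The summed members pointed in opposite directions in different cell classes of the same mice: the log2 ratio of FMTg over Tg was 0.86 in enterocyte-like, 0.46 in tuft-like and 0.45 in goblet-like cells, and -0.22 in T-like and -0.35 in B-like cells. The difference between classes was not tested, since each class has 1 library per group.

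Barcodes outside the comparison, the 2483 Tg and 2623 FMTg epithelial barcodes over the mitochondrial limit, also had a higher member CPM in FMTg, with a log2 ratio of 0.59. Their non-epithelial counterparts, 463 and 730 barcodes, stood at -0.26.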

How the results depend on the processing

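All values are log2 ratios of the member sum, FMTg over Tg. No paired analysis was possible because each group has 1 library, and for the same reason no replicate could be left out. Under the alternatives, 50 values of the sums stayed within the counting interval of the reported value, 46 moved out of it and 2 reversed. Reversals came with the 10% mitochondrial limit (9 FMTg enterocyte-like cells): enterocyte-like -0.48 and middle range -0.35, with lower range -0.43, upper -0.0017, tuft-like -0.36, goblet-like 0.34 and B-like -0.68. There Isg15, Irf7 and Oasl1 stood at -0.62, -0.10 and -1.55 in enterocyte-like cells. At equal weight per cell, Oas2 and Rtp4 stood at -0.17 and -0.025, and the sums at 0.59 (enterocyte-like), 0.55 (middle), 0.40 (upper) and 0.22 (goblet-like). With no mitochondrial limit they were 0.71, lower range 0.67, middle 0.63, upper 0.54 and goblet-like 0.55. With doublets kept, the lower range was -0.13, the middle 0.71, the upper 0.39 and tuft-like 0.032. TMM gave 0.79 for enterocyte-like and -0.14 for T-like cells, DESeq2 size factors 0.80 and -0.14, and totals without abundant genes 0.80, with -0.035 for the lower and 0.74 for the middle range. Ranges set within each library gave 0.97, 0.98 and 0.59 from lower to upper, a score without the Reg family 0.83, 0.58 and 0.55, and no thinning 0.60 (middle) and 0.57 (upper). Without cluster 4 the sums were 0.43 (enterocyte-like), 0.47 (middle) and 0.055 (upper). Without the member with the most UMIs they were 0.77 (enterocyte-like), 0.70 (middle), 0.41 (upper), 0.57 (tuft-like) and 0.35 (goblet-like). Added after seeing the data, the mean of the 3 villus ranges gave 0.52, and leaving out the 10 highest cells 0.70, lower -0.48, middle 0.50 and tuft-like 0.20. The causes were not tested. Requiring 50 UMIs left 10 tuft-like and 0 B-like members at least 1.5-fold higher, and 1 UMI gave 3 in T-like cells. Few cells limit the lower range in FMTg (84 cells), the upper range in Tg (59) and tuft-like cells (51 and 62).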

Other observations

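Enteroendocrine-like cells, 16 Tg and 15 FMTg in number, stood at 462 and 807 CPM on 59 and 172 member UMIs. Plasma-like cells stood at 601 and 494 CPM, a log2 ratio of -0.28 with an interval that includes 0.

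In crypt-progenitor-like cells, 10 Tg and 37 FMTg, the member sums were nearly equal but the groups were not. The Ifit family had 1 Tg and 47 FMTg UMIs, of which 31 were Ifit1 UMIs of 1 cell. The 3 immunity-related GTPases had 74 and 157 UMIs, which is 182 and 85.4 CPM.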
